A study of Mus musculus with 191 samples.

Results

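Bone marrow of mice given antibody against Ly6G, labelled as depleted of neutrophils, and of control mice was compared at the 3 dark-phase times of the day, Zeitgeber time (ZT, hours after lights on) 13, 17 and 21. The libraries were chosen by their labels alone: bone marrow, 1 of these 3 times, and 1 of 2 antibodies. They were 18 of the 36 bone marrow libraries and of the 191 samples of the series. All were from wild-type C57BL/6 mice. The 9 anti-Ly6G libraries came from mice given the rat antibody clone 1A8 against Ly6G, the other 9 from mice given control IgG, both at 3 µg per g body weight on 2 consecutive days, and there were 3 mice for each antibody and time. Collection was on the third day. The authors' check of depletion in blood, which the labels mention, is not analysed here, so depletion is taken from the labels. Housing was either the ordinary facility or a cabinet whose light schedule was shifted by 12 h; which mouse had which is not in the labels, so housing and ZT cannot be told apart.

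Bone marrow is where neutrophils are made. In textbook terms, a dividing progenitor (the promyelocyte) first fills azurophil granules with myeloperoxidase and serine proteases, the next stages fill specific and then gelatinase granules, and the finished cell is held in the marrow until release. Ly6G is a surface protein of mouse neutrophils that appears late in this sequence, and antibody against it removes neutrophils from the blood. Neutrophil number in blood has a daily rhythm, and the marrow adjusts output to loss in the periphery.

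Each library had between 13.1 and 23.4 M recovered reads, with a median of 16.2 M for IgG and 14.2 M for anti-Ly6G, and 1 read was worth between 0.0431 and 0.0772 units of the deposited normalized signal. The tissue label held in the markers: S100a8, S100a9, Ngp and Ltf of neutrophils, Hbb-bs and Hba-a1 of red cells and Cd79a of B cells were present in all 18 libraries. Col1a1 of bone and Acta1 of muscle were also present and varied widely, Col1a1 between 1352 and 9097 with IgG, median 4161, and between 1771 and 7201 with anti-Ly6G, median 3559. One library stood apart. Anti-Ly6G replicate 1, taken at ZT13, had 29.0 on the second principal component, which held 14.7% of the variance, where the other 17 libraries lay between -13.9 and 8.51. Its summed level of the specific and gelatinase granule genes was 37749.8, against a sum between 19008 and 23168 with IgG and between 23183 and 26424 in the other 8 anti-Ly6G libraries. Its summed erythroid level was 56157, against a sum between 100918 and 124262 with IgG and between 83368 and 110957 in the other 8 anti-Ly6G libraries. Main results below, and those of called genes in which it was far from the other anti-Ly6G libraries, are also given without it. For some genes not called in which it was also far from the others, the differences below include it. These are S100a8, S100a9, Alas2, Hbb-bs, Vpreb1, Cry1 and Arntl.

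**Figure D1:**
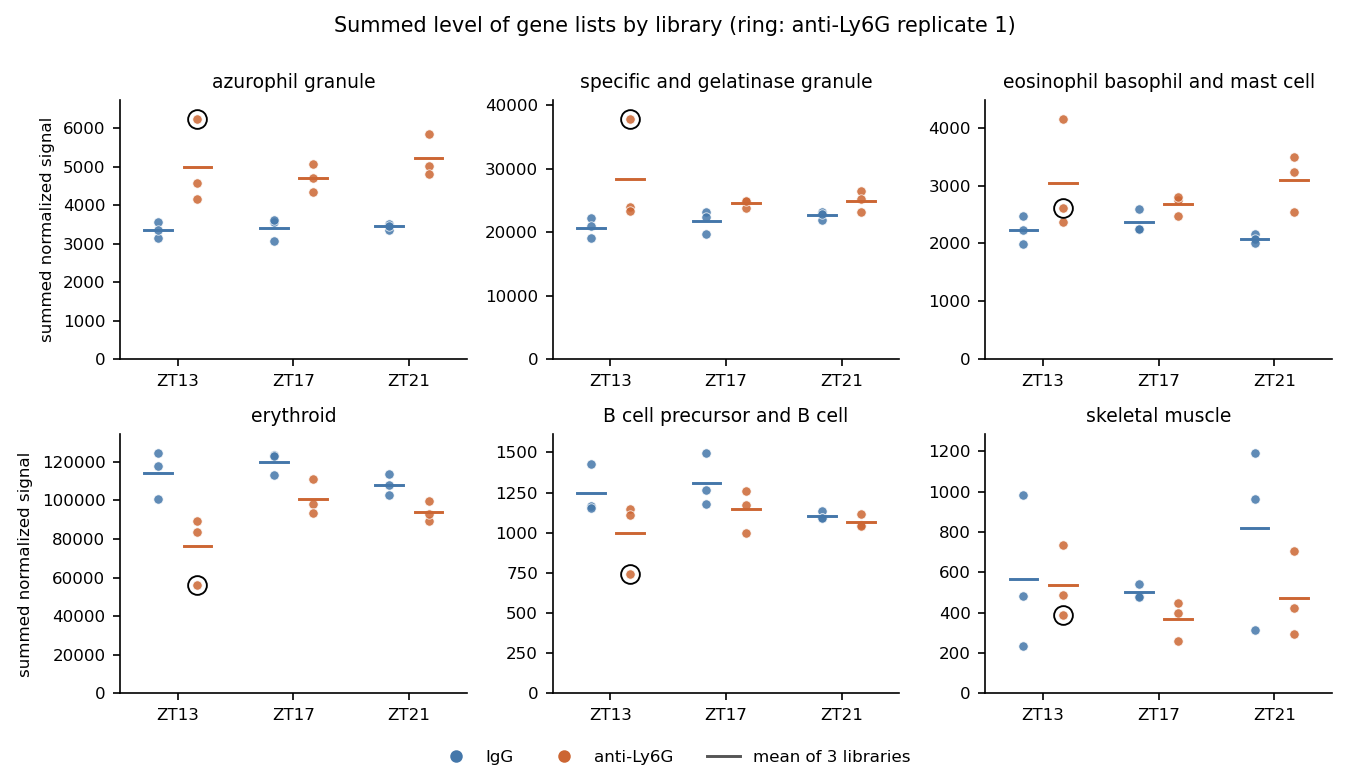
Summed normalized signal of the tested members of 6 gene lists in each library (points) at ZT13, ZT17 and ZT21, with bars for the mean of 3 libraries. The ringed library is anti-Ly6G replicate 1, which is highest for both granule lists and lowest for erythroid and B cell genes.

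Of 14289 genes tested, 550 (3.85%) differed between the antibodies at an adjusted p under 0.05, 401 higher with anti-Ly6G (2.81%) and 149 lower (1.04%). The changes were small. Only 9 of the genes called higher and 16 of those called lower differed by more than 1.5-fold, on the log2(value + 1) scale used throughout. The median log2 difference of all genes tested was -0.01. It does not measure the size of the changes, since the signal is scaled within each library. In 65 genes (0.455%) all 9 anti-Ly6G libraries were above all 9 IgG libraries, and in 11 (0.077%) all were below. Of the 550, 548 had the same sign at ZT13, ZT17 and ZT21. The genes were called on the difference over these same times, so this count is a description only. Without anti-Ly6G replicate 1, 463 genes were called, 415 of them among the 550. The number of calls was between 254 and 812 with any 1 library left out. The sign of all 72 called genes that the naming rule selects stayed the same under every alternative run. Those genes were called on these same libraries, so a kept sign is a description and not a separate test.

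Ly6g itself (ENSMUSG00000022582, chromosome 15, 75155240 to 75159126 of GRCm38), the gene of the antibody's target, was between 79.7 and 119 with IgG, median 101, and between 91.4 and 175 with anti-Ly6G, median 116. The groups overlapped (log2 difference 0.23, SE 0.0932; adjusted p = 0.174), and the highest value was that of anti-Ly6G replicate 1. Ly6g RNA in the marrow was therefore not called lower with anti-Ly6G, and the log2 difference without that library was 0.15 at adjusted p = 0.28.

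The azurophil granule list had the highest median of the 34 gene lists examined. Of its 9 genes 8 rose, against 2.81% over all genes, and none fell. The median log2 difference was 0.55 against -0.01 over all genes. Prtn3 (proteinase 3; ENSMUSG00000057729, chromosome 10, 79874476 to 79883174) was between 305 and 378 with IgG, median 351, and between 456 and 805 with anti-Ly6G, median 543, 1.67-fold higher (log2 difference 0.74, SE 0.0853; adjusted p = 0.00014). Every anti-Ly6G library lay above every IgG library. Mpo (myeloperoxidase; ENSMUSG00000009350, chromosome 11, 87793581 to 87804413) was between 1311 and 1520.1 with IgG, median 1467, and between 1718 and 2714 with anti-Ly6G, median 2103, again with no overlap (log2 difference 0.58, SE 0.0721; adjusted p = 0.00032). Elane (neutrophil elastase) was between 473 and 610.3 with IgG, median 564, and between 668 and 975 with anti-Ly6G, median 803 (log2 difference 0.54, SE 0.0685; adjusted p = 0.000334). Ctsg (cathepsin G) was between 177 and 233 with IgG, median 208, and between 249.6 and 432 with anti-Ly6G, median 317 (log2 difference 0.65, SE 0.0822; adjusted p = 0.00032). All 4 are products of the promyelocyte, and in each the IgG libraries kept to a narrow band while the anti-Ly6G libraries spread upwards. Without anti-Ly6G replicate 1 the log2 differences were 0.68 at adjusted p = 4.68e-05 for Prtn3, 0.53 at adjusted p = 6.54e-05 for Mpo, 0.49 at adjusted p = 6.54e-05 for Elane and 0.61 at adjusted p = 0.000133 for Ctsg. In bulk marrow, more cells of a type and more RNA per cell cannot be told apart.

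Of the other 5 members of the list, 4 rose. Ms4a3, a membrane protein of granulocyte and monocyte progenitors, was at log2 0.57 (adjusted p = 0.00143). Prss57, a further neutrophil serine protease, rose by 0.55. Serpinb1a, an inhibitor of these proteases, rose by 0.38 and Srgn, the proteoglycan on which they are packed, by 0.24. The exception, Ctsc, the enzyme that activates the serine proteases, was at 0.12 and was not called. The summed level of the list was between 3067 and 3617 with IgG and between 4163 and 5841 in the other 8 anti-Ly6G libraries, and 6230.4 in anti-Ly6G replicate 1. No IgG library reached the lowest anti-Ly6G library, and 8 genes were called both without ZT13 and without that library.

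The promoters of the 4 main azurophil genes are shown because all 4 genes rose with no overlap between the antibodies. Prtn3 and Elane are neighbours on chromosome 10. The sequences are the 250 bases before the RefSeq start on GRCm38.p6, 5′ to 3′ on the gene's strand, at chr10:79879417-79879666 (plus), chr10:79886062-79886311 (plus), chr11:87793534-87793783 (plus) and chr14:56102575-56102824 (minus). The gene spans given above for Prtn3 and Mpo, from GENCODE, begin before these RefSeq starts. The Prtn3 window and most of the Mpo window therefore lie inside those spans. Capitals mark, on either strand, GAGGAA (the core of sites of PU.1, a factor of myeloid cells) and AACNG (the core of Myb sites), where N is any base.
Prtn3: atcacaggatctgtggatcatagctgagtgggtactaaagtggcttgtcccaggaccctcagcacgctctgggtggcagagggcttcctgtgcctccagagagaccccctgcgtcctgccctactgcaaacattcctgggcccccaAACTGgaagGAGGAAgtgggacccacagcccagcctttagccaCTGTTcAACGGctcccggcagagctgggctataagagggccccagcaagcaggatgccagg
Elane: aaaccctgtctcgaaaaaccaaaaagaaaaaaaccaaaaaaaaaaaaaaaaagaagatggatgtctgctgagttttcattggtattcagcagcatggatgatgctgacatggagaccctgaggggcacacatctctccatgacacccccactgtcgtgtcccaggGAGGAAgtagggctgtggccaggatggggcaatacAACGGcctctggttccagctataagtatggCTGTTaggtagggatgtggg
Mpo: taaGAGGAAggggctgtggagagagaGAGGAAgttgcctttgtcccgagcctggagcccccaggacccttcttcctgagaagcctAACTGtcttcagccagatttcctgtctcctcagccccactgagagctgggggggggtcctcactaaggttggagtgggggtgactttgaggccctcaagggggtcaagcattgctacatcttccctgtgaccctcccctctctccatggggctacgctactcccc
Ctsg: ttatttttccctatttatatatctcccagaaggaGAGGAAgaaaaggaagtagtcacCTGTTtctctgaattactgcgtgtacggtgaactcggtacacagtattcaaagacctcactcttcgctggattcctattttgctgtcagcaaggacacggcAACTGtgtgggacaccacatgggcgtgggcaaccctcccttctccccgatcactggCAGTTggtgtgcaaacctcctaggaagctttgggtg
GAGGAA was in 4 of the 4 windows, against 23.3% of 32851 promoter windows of the same length, and AACNG in 4 of 4, against 74.2%. A C/EBP core written TTNNGNAA was in 0 of the 4, against 36.8% of all windows. These letters are matches only, and binding was not measured.

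Of 18 regulators and markers of granulocyte formation 6 rose, against 2.81% over all genes, and none fell (median 0.16). Gfi1 (ENSMUSG00000029275, chromosome 5, 107716657 to 107726036), a repressor that progenitors need to become neutrophils, was between 22.5 and 30.4 with IgG, median 28.9, and between 32.7 and 57.1 with anti-Ly6G, median 39.5. No library overlapped (log2 difference 0.51, SE 0.0808; adjusted p = 0.00217; 0.44 at adjusted p = 0.000452 without anti-Ly6G replicate 1). Csf2rb, the receptor chain shared by interleukin 3, interleukin 5 and GM-CSF, was at 0.45 (adjusted p = 0.00728). Cebpe, the factor of the secondary granule stage, was at 0.34 (adjusted p = 0.00825), and Gstm1, a glutathione transferase, at 0.44 (adjusted p = 0.00231). Leaving out anti-Ly6G replicate 1 put Cebpe at 0.29 at adjusted p = 0.00565. Fcnb (ficolin B) and Stat3, which carries the G-CSF signal, were at 0.29 and 0.23. Among the members not called were Cebpa (0.21), Spi1, the gene of PU.1 (0.19), Cd34 (0.12) and Myb (-0.01).

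**Figure D2:**
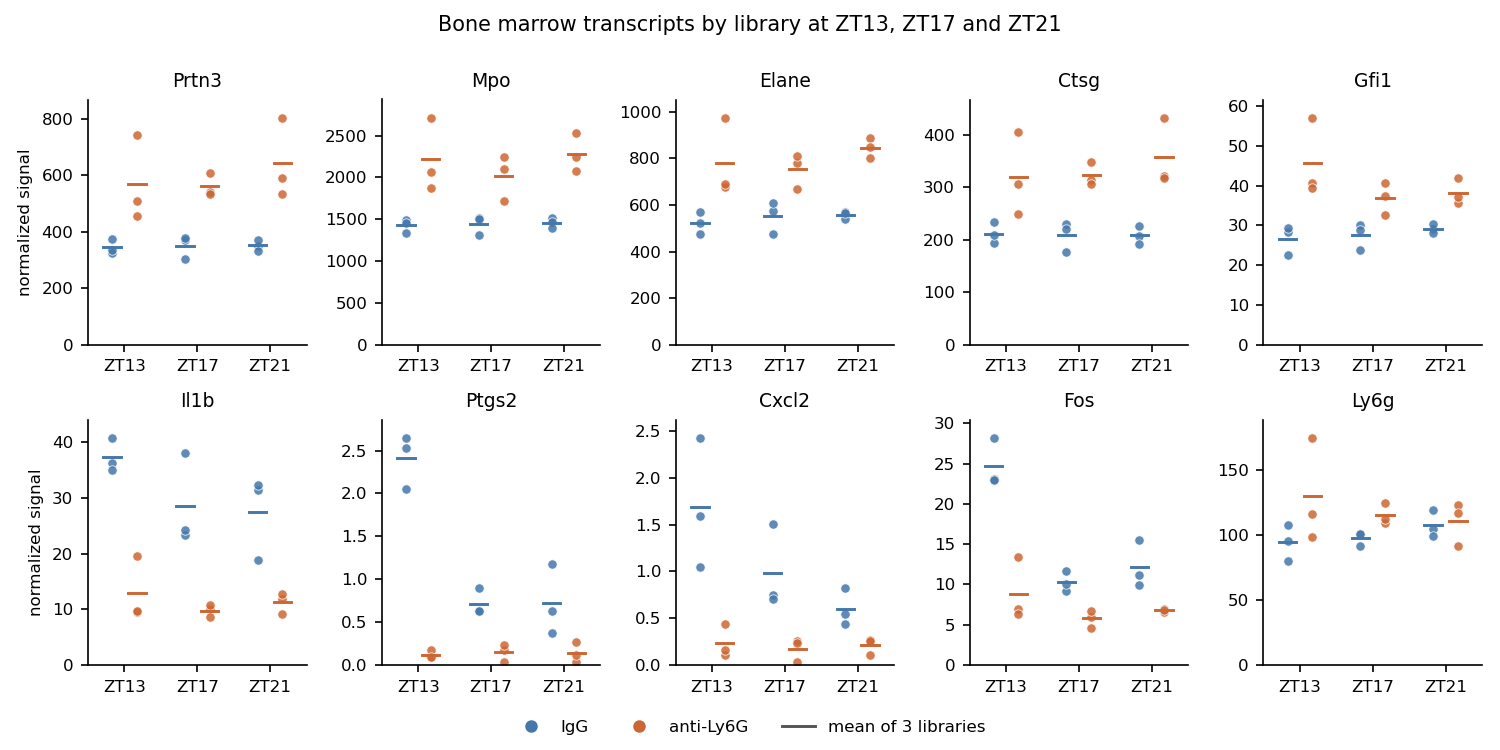
Normalized signal of 10 genes in each library (points) at ZT13, ZT17 and ZT21 with IgG or anti-Ly6G, with bars for the mean of 3 libraries and axes starting at 0. Prtn3, Mpo, Elane, Ctsg and Gfi1 show no overlap between the antibodies, Ptgs2 and Cxcl2 none in the other direction, and Ly6g overlaps.

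The granules of the later stages are represented by 18 specific and gelatinase granule genes. Of these 5 rose, against 2.81% over all genes, and none fell (median log2 difference 0.29). Cd177, a surface protein that binds proteinase 3, was between 543 and 700.0 with IgG, median 619, and between 713 and 1280.2 with anti-Ly6G, median 783 (log2 difference 0.39, SE 0.0860; adjusted p = 0.0176; 0.30 at adjusted p = 0.00088 without anti-Ly6G replicate 1), with no overlap. Lcn2 (lipocalin 2, which withholds iron from bacteria) was between 1300.2 and 1609 with IgG, median 1512, and between 1686 and 2919.6 with anti-Ly6G, median 1822, also with no overlap (log2 difference 0.36, SE 0.0862; adjusted p = 0.0254; 0.28 at adjusted p = 0.00261 without it). The call of Lcn2 was lost without IgG replicate 2 or IgG replicate 4 (adjusted p up to 0.0594). Pglyrp1, which binds bacterial peptidoglycan, was at 0.37 (adjusted p = 0.0129) and Anxa1 (annexin A1) at 0.36 (adjusted p = 0.0171). Leaving out the same library put Pglyrp1 at 0.29 at adjusted p = 0.000641 and Anxa1 at 0.29 at adjusted p = 0.00199. Ngp and Ltf (lactotransferrin), among the most abundant RNAs of the list, had 0.31 (adjusted p = 0.0579) and 0.30 (adjusted p = 0.0532). Ngp was not called although its groups did not overlap, between 4195 and 5218 with IgG, median 4768, and between 5297 and 8719 with anti-Ly6G, median 5611. Without anti-Ly6G replicate 1, whose level was the highest of all 18, the list had 8 genes higher at a median of 0.20, Ngp at 0.24 at adjusted p = 0.0292 and Ltf at 0.23 at adjusted p = 0.0333.

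Of 23 genes of the mature neutrophil 3 were called higher, against 2.81% over all genes, and none lower. The median was 0.14. Stfa2l1 (a stefin) was at 0.50, Slfn4 (a schlafen) at 0.41 and Alox5ap, which serves leukotriene synthesis, at 0.35. Each of these calls was marginal: that of Stfa2l1 was lost without any 1 of 10 of the 18 libraries, with adjusted p up to 0.0836, that of Slfn4 without any 1 of 9 of the 18 libraries, with adjusted p up to 0.0764 and that of Alox5ap without any 1 of 7 of the 18 libraries, with adjusted p up to 0.0693. Leaving out anti-Ly6G replicate 1 put them at 0.37 at adjusted p = 0.0174, 0.33 at adjusted p = 0.0374 and 0.27 at adjusted p = 0.0112. S100a8 and S100a9, the most abundant alarmin genes of the cell, were at 0.25 (adjusted p = 0.185) and 0.23 (adjusted p = 0.239). The receptors Cxcr2 (0.05) and Csf3r (-0.16) were not called. Without anti-Ly6G replicate 1 the list had 4 genes higher and 2 lower, at a median of 0.05. None of 11 genes of neutrophil retention and release was called, against 3.85% over all genes. Cxcl12, the ligand that holds neutrophils in the marrow, was at -0.02 and its receptor Cxcr4 at 0.11.

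Of 7 genes of the oxidase and of extracellular traps 5 rose, against 2.81% over all genes. Ncf4 was at 0.32 (adjusted p = 0.0189), Cybb at 0.28 (adjusted p = 0.0428) and Ncf1 at 0.25 (adjusted p = 0.0445), 3 parts of the enzyme that makes superoxide. Padi4, which citrullinates histones, was at 0.28 (adjusted p = 0.0412). Of these 4, only Ncf4 kept its call without each library in turn, while Cybb lost it without any 1 of 13 libraries, Ncf1 without any 1 of 11 and Padi4 without any 1 of 12 (adjusted p up to 0.094). Of 12 tested identifiers in the list of receptors for antibody and complement, where Itgam has 2, 2 rose, against 2.81% over all genes. Fcgr2b, the inhibitory receptor for IgG, was between 70.5 and 81.7 with IgG, median 75.5, and between 84.4 and 106 with anti-Ly6G, median 89.8, with no overlap (log2 difference 0.26, SE 0.0425; adjusted p = 0.00262). C3, the central complement component, was at 0.33 (adjusted p = 0.018). With anti-Ly6G replicate 1 left out, Fcgr2b was at 0.23 at adjusted p = 0.000981, C3 at 0.26 at adjusted p = 0.00153 and Ncf4 at 0.25 at adjusted p = 0.00237, while Cybb had 0.21 at adjusted p = 0.0228, Ncf1 0.18 at adjusted p = 0.0154 and Padi4 0.22 at adjusted p = 0.0322, and the receptor list held 3 rises.

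Of the 4 largest falls among the named genes, 3 were of inflammatory genes (Il1b, Ptgs2 and Cxcl2) and the other was Fos. Il1b (ENSMUSG00000027398, chromosome 2, 129364570 to 129371139), the gene of interleukin 1 beta, was between 18.9 and 40.8 with IgG, median 32.4, and between 8.64 and 19.6 with anti-Ly6G, median 9.99, a fold of 0.384 (log2 difference -1.38, SE 0.134; adjusted p = 2.3e-05). The 2 groups met only at anti-Ly6G replicate 1, the highest anti-Ly6G library, which was above the lowest IgG library, taken at ZT21. Without it the log2 difference was -1.46 at adjusted p = 2.31e-06. Ptgs2 (cyclooxygenase 2, ENSMUSG00000032487, chromosome 1, 150100031 to 150108227) was between 0.369 and 2.65 with IgG, median 0.893, and between 0.0316 and 0.270 with anti-Ly6G, median 0.110, with no overlap (log2 difference -0.92, SE 0.148; adjusted p = 0.00231). These are low levels: 193 reads in all 9 IgG libraries together against 14 in the 9 anti-Ly6G libraries, of which 2 had none. Cxcl2, a chemokine that draws neutrophils, was between 0.436 and 2.43 with IgG, median 0.820, and between 0.0316 and 0.433 with anti-Ly6G, median 0.230, from 163 against 24 reads and with no overlap (log2 difference -0.75, SE 0.133; adjusted p = 0.00456). Because both genes lie near the pseudocount of 1, their log2 differences understate the change in the reads.

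Other members of the list of cytokine and NF-kB target genes moved less, and not all in 1 direction. Of 17, 5 fell and 1 rose, against 1.04% lower and 2.81% higher over all genes, and the median was -0.06. Nlrp3, the sensor that leads to the processing of interleukin 1 beta, was between 20.5 and 25.8 with IgG, median 22.4, and between 12.2 and 26.6 with anti-Ly6G, median 15.7, with overlap only through anti-Ly6G replicate 1, the highest of all 18 libraries (log2 difference -0.49, SE 0.0956; adjusted p = 0.00825; -0.57 at adjusted p = 0.000202 without it). Il1rn, the natural antagonist of the interleukin 1 receptor, was at -0.34. Ier3 rose by 0.36, and it was not called without anti-Ly6G replicate 1, where the list had 6 lower and 0 higher. Tnf (0.33), Il1a (-0.07), Ccl3 (-0.01) and the feedback inhibitor Nfkbia (0.11) were not called.

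Immediate early genes, which cells switch on within minutes of a stimulus, had 5 of 17 lower and 1 higher. The shares over all genes were 1.04% lower and 2.81% higher. Fos (ENSMUSG00000021250, chromosome 12, 85473890 to 85477273), a part of the AP-1 factor, was between 9.15 and 28.2 with IgG, median 11.6, and between 4.62 and 13.4 with anti-Ly6G, median 6.71 (log2 difference -0.98, SE 0.135; adjusted p = 0.000599; -1.03 at adjusted p = 0.000202 without anti-Ly6G replicate 1). The overlap came from that library, which was the highest with anti-Ly6G, and the 3 highest IgG values were those of ZT13. Dusp1, a phosphatase of MAP kinases, was at -0.44 (adjusted p = 0.0238; -0.53 at adjusted p = 0.000218 without anti-Ly6G replicate 1), Junb at -0.38 (adjusted p = 0.0288) and Jun at -0.31 (adjusted p = 0.014). The call of Junb was lost without IgG replicate 4, IgG replicate 9 or anti-Ly6G replicate 8 (adjusted p up to 0.0576). Btg2 fell by 0.16 and Klf2 rose by 0.22. With anti-Ly6G replicate 1 left out the list held 6 lower and 0 higher. Egr1 (-0.11), Nr4a1 (-0.07) and Atf3 (-0.18) were not called. Of 12 glucocorticoid response genes only Dusp1 was called, against 3.85% over all genes. Of the 12, 6 had a positive difference, and the median was -0.0002, or -0.05 without anti-Ly6G replicate 1. That library had the highest summed level of the list, 959, against 588 to 715 in the other anti-Ly6G libraries and 629 to 728 with IgG. Ddit4 (0.55), Tsc22d3 (0.32) and Fkbp5 (0.19), not called, were among the positive members, and these values include it.

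The promoters of Il1b, Ptgs2, Cxcl2 and Fos are shown because these were the 4 largest falls among the named genes. They are again the 250 bases before the RefSeq start on GRCm38.p6, at chr2:129371140-129371389 (minus), chr1:150099781-150100030 (plus), chr5:90903649-90903898 (plus) and chr12:85473640-85473889 (plus). Capitals mark, on either strand, a form of the NF-kB site (GGG, any 3 bases, then TTCC, with overlapping matches joined), TGACGT (the core of the cyclic AMP response element) and TATAAA (the box bound by the TATA-binding protein).
Il1b: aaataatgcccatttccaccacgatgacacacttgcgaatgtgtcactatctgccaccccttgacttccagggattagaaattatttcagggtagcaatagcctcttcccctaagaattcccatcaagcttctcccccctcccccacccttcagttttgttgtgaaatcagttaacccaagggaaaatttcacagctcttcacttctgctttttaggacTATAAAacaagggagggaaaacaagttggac
Ptgs2: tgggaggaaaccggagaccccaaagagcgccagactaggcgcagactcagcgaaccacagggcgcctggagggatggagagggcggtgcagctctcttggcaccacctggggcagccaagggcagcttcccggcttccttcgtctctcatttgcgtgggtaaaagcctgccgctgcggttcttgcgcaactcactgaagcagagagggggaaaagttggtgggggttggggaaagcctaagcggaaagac
Cxcl2: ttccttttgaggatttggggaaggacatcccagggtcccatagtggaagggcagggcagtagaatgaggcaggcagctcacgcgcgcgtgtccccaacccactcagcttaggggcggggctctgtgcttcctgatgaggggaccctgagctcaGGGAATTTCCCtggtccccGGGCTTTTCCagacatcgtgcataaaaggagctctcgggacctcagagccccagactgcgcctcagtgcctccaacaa
Fos: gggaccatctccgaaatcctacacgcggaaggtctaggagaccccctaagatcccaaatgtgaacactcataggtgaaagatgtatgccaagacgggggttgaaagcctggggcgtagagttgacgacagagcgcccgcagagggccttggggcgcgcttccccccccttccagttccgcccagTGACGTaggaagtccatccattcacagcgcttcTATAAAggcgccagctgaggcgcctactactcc
The NF-kB form was found in Cxcl2 alone, in 3 matches, against 4.65% of all windows. TGACGT was in Fos alone, against 6.47%, and TATAAA in Il1b and Fos, against 12.4%. Ptgs2 held none of the 3 in this window.

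Outside the lists, the rule for the largest changes named genes of several functions. Ggt1 (gamma-glutamyltransferase, of glutathione turnover) had the largest rise of all named genes and was between 0.854 and 2.92 with IgG, median 2.03, and between 2.84 and 8.23 with anti-Ly6G, median 3.83 (log2 difference 0.90, SE 0.176; adjusted p = 0.00813; 0.80 at adjusted p = 0.00794 without anti-Ly6G replicate 1). Lipg (endothelial lipase) was between 5.05 and 8.83 with IgG, median 6.36, and between 7.09 and 21.3 with anti-Ly6G, median 11.4 (log2 difference 0.76, SE 0.154; adjusted p = 0.00917; 0.67 at adjusted p = 0.00987 without it). Both groups overlapped in these 2 genes. Lipg was the only called gene of 10 endothelial genes, against 3.85% called over all genes. Cdh5 was at 0.12 and Pecam1 at 0.06. Upp1 (uridine phosphorylase) was at 0.75 (adjusted p = 0.00825; 0.63 at adjusted p = 0.00531 without anti-Ly6G replicate 1) and Prok2 (prokineticin 2, a secreted peptide of myeloid cells) at 0.61 (adjusted p = 0.00769). Prok2 had only 6 to 34 reads per library with IgG and 12 to 35 with anti-Ly6G, and its groups overlapped. Its call was lost without ZT13 and without ZT17. Lrg1, a secreted leucine-rich glycoprotein, was between 49.1 and 66.9 with IgG, median 56.8, and between 76.8 and 174 with anti-Ly6G, median 83.1, with no overlap (log2 difference 0.67, SE 0.119; adjusted p = 0.00456). Its highest value was that of anti-Ly6G replicate 1, and without it the log2 difference was 0.55 at adjusted p = 6.71e-05. B4galt6, which makes lactosylceramide, was between 31.0 and 43.9 with IgG, median 38.9, and between 50.0 and 80.0 with anti-Ly6G, median 57.1, with no overlap (log2 difference 0.61, SE 0.0813; adjusted p = 0.000404). Inpp5j, an inositol phosphatase, was at 0.62 (adjusted p = 0.00728) and also showed no overlap, and Ifitm6 was at 0.57 (adjusted p = 0.00825).

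Among the falls, Hcar2, the receptor for niacin and beta-hydroxybutyrate, was between 7.00 and 9.92 with IgG, median 8.69, and between 3.82 and 6.80 with anti-Ly6G, median 5.45, with no overlap (log2 difference -0.61, SE 0.101; adjusted p = 0.00295). Amica1, an adhesion molecule of leukocytes, was between 34.0 and 43.7 with IgG, median 36.7, and between 17.8 and 39.2 with anti-Ly6G, median 25.9 (log2 difference -0.60, SE 0.107; adjusted p = 0.0049). The overlap again came from anti-Ly6G replicate 1 alone, and without it the log2 difference was -0.68 at adjusted p = 0.000146. Mpzl3 was at -0.61 (adjusted p = 0.00825), Lhx1, a homeobox factor, at -0.74 (adjusted p = 0.0134) and Cd209f, a C-type lectin of tissue macrophages, at -0.63 (adjusted p = 0.01). Lhx1 had only 22 to 50 reads per library with IgG and 4 to 41 with anti-Ly6G. Its call was lost without ZT17 and without ZT21. Among the 12 largest falls were also the muscle genes Ttn (titin, -0.73) and Hrc (a calcium-binding protein of the sarcoplasmic reticulum, -0.59). Their calls were lost without any 1 of 12 of the 18 libraries, with adjusted p up to 0.0848, for Ttn and any 1 of 5 of the 18 libraries, with adjusted p up to 0.0611, for Hrc. The call of Ttn was also lost with voom weights, robust variances and all 36 libraries in 1 fit. None of the 12 listed skeletal muscle genes was called, at a median of -0.41, and their summed level was between 234 and 1190.0 with IgG and between 258 and 735 in the other 8 anti-Ly6G libraries. The part of muscle carried along with the marrow in these 2 falls was not tested.

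**Figure D3:**
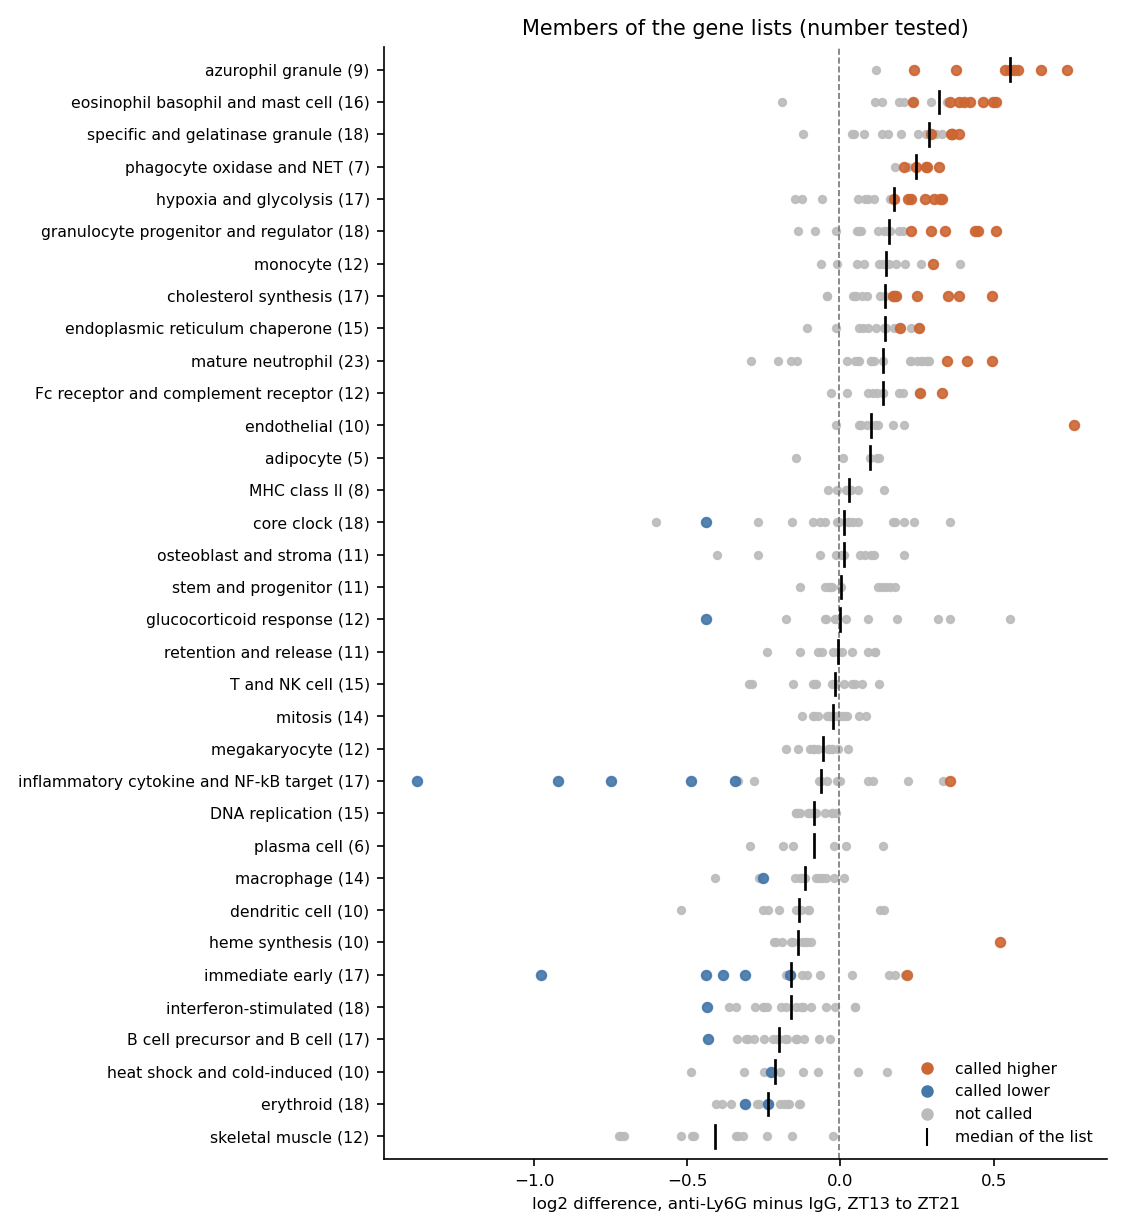
Log2 difference (anti-Ly6G minus IgG) of every tested member of the 34 gene lists, ordered by their median (black bars), with called genes in colour and the median of all genes as a dashed line. The azurophil granule list has the highest median, 0.55, and the skeletal muscle list the lowest, -0.41, with no called gene.

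Eosinophil, basophil and mast cell genes rose too, 8 of 16 with none lower (median 0.32), against 2.81% higher over all genes. Siglecf, an inhibitory lectin of eosinophils, was between 11.1 and 18.5 with IgG, median 14.3, and between 16.5 and 24.6 with anti-Ly6G, median 19.7 (log2 difference 0.42, SE 0.0873; adjusted p = 0.0101). Epx (eosinophil peroxidase) was between 208 and 338 with IgG, median 279.5, and between 310.0 and 627 with anti-Ly6G, median 369 (log2 difference 0.50, SE 0.129; adjusted p = 0.0377), and the ribonucleases Ear6 and Ear1 were at 0.51 (adjusted p = 0.0255) and 0.47 (adjusted p = 0.0348). Ear genes are near-identical copies, so that reads may be split between them. Prg2 (major basic protein) was at 0.36 (adjusted p = 0.045), and lost its call without any 1 of 13 of the 18 libraries, with adjusted p up to 0.087. The call of Prg2 was also lost with no filter, quantile scaling, robust variances and all 36 libraries in 1 fit. Mcpt8, a protease of basophils, rose by 0.39. In Siglecf and Epx a few IgG libraries reached into the anti-Ly6G range. Anti-Ly6G replicate 1 did not lead here, since its sum over the list of 2605 lay inside the range of the other 8, 2366 to 4145. These calls depended on single libraries: Epx was lost without any 1 of 10 of the 18 libraries, with adjusted p up to 0.0782, Ear1 without any 1 of 9 of the 18 libraries, with adjusted p up to 0.0704 and Ear6 without IgG replicate 9, anti-Ly6G replicate 7 or anti-Ly6G replicate 9 (adjusted p up to 0.0535), and without ZT13 the list had 4 higher.

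In the red cell lineage all 18 tested genes had a negative log2 difference, at a median of -0.24, but only 2 fell. Over all genes 1.04% were called lower. Klf1, the master regulator of red cell genes, was between 138 and 185 with IgG, median 163, and between 91.8 and 145 with anti-Ly6G, median 134 (log2 difference -0.31, SE 0.0726; adjusted p = 0.0224), and Epor, the erythropoietin receptor, was between 81.3 and 100 with IgG, median 93.8, and between 58.5 and 84.6 with anti-Ly6G, median 80.7 (log2 difference -0.24, SE 0.0544; adjusted p = 0.02). Both groups overlapped. Klf1 was not called without IgG replicate 2 or IgG replicate 3 (adjusted p up to 0.0502). The globin genes Hbb-bs (-0.39; adjusted p = 0.172) and Hba-a1 (-0.32; adjusted p = 0.0724) were not called. Anti-Ly6G replicate 1 was the lowest library for all of these, and without it Klf1 was at -0.25 at adjusted p = 0.00726 and Epor at -0.19 at adjusted p = 0.0124, and 5 of the 18 were called lower at a median of -0.17. The deposited signal is relative to each library's total, so that these levels are shares and not amounts per marrow.

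Of 10 genes of heme synthesis 1 rose, against 2.81% over all genes, and none fell (median -0.14). Alas1 (ENSMUSG00000032786, chromosome 9, 106233455 to 106248654), the first enzyme of the pathway outside red cells, was between 102 and 123 with IgG, median 113, and between 137 and 212 with anti-Ly6G, median 156, with no overlap (log2 difference 0.52, SE 0.0569; adjusted p = 8.03e-05; 0.48 at adjusted p = 1.07e-05 without anti-Ly6G replicate 1). Alas2, the gene of the red cell enzyme of the same step and counted in the erythroid list, was between 1417 and 1915 with IgG, median 1670.3, and between 896 and 1654 with anti-Ly6G, median 1454 and was not called (log2 difference -0.27, SE 0.0832; adjusted p = 0.0688). The other 9 tested genes of the pathway and its carriers lay between -0.22 (Uros) and -0.09 (Ppox), and none was called.

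Against 1.04% lower over all genes, 1 of 17 B lineage genes fell. Of the 17 all were below 0 (median -0.20) and the 1 called was Igll1, a part of the pre-B cell receptor, which was between 22.0 and 30.7 with IgG, median 27.4, and between 10.4 and 23.4 with anti-Ly6G, median 20.7 (log2 difference -0.43, SE 0.113; adjusted p = 0.0386). Leaving out its lowest library, anti-Ly6G replicate 1, put it at -0.33 at adjusted p = 0.0191 and the median of the list at -0.14. The call was lost without any 1 of 10 of the 18 libraries, with adjusted p up to 0.0822. Vpreb1, its partner, was at -0.34 (adjusted p = 0.172). Against 3.85% called over all genes, no gene was called among 6 of plasma cells, 15 of T and NK cells, 12 of megakaryocytes, 8 of MHC class II, 10 of dendritic cells and 11 of stem and progenitor cells. The 15 DNA replication genes (median -0.09) and the 14 mitosis genes (median -0.03) held no call either, with Mki67 at -0.09 (adjusted p = 0.621). Of 12 monocyte genes only Ly6c2 rose, between 385 and 483 with IgG, median 448, and between 496 and 706 with anti-Ly6G, median 522, with no overlap (log2 difference 0.30, SE 0.0579; adjusted p = 0.00749; 0.25 at adjusted p = 0.000981 without anti-Ly6G replicate 1), while Ccr2 (0.18; adjusted p = 0.243) and Csf1r (-0.01; adjusted p = 0.916) were not called. Ly6c2 is also made by granulocyte progenitors, and it has a close copy, Ly6c1. Among 14 macrophage genes Slc40a1, the iron exporter ferroportin, fell (log2 difference -0.25, SE 0.0649; adjusted p = 0.0347), and the call was lost without any 1 of 7 of the 18 libraries, with adjusted p up to 0.0701. Among 18 interferon-stimulated genes Ifit3 fell (log2 difference -0.44, SE 0.107; adjusted p = 0.0291), and was lost without any 1 of 6 of the 18 libraries, with adjusted p up to 0.0605. The single calls of the monocyte, macrophage and interferon lists stand against 2.81% higher and 1.04% lower over all genes.

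Several metabolic genes rose. In the cholesterol list 7 of 17 were higher and none lower (median 0.15), against 2.81% higher over all genes. Mvd, an enzyme of the mevalonate branch, was between 8.51 and 11.7 with IgG, median 9.98, and between 10.6 and 16.5 with anti-Ly6G, median 13.3 (log2 difference 0.39, SE 0.0705; adjusted p = 0.00529; 0.36 at adjusted p = 0.00629 without anti-Ly6G replicate 1). Fdps, a further enzyme of that branch, was at 0.35 (adjusted p = 0.00895), and Srebf2, a transcription factor of the pathway's genes, at 0.18. Msmo1 was at 0.25 (adjusted p = 0.0466) and lost its call without any 1 of 14 of the 18 libraries, with adjusted p up to 0.0872. The count of the list was 2 without ZT13 and 5 without anti-Ly6G replicate 1. In the list of hypoxia and glycolysis 7 of 17 rose, against the same share, and none fell (median 0.17). Eno1 (enolase) was between 463 and 538 with IgG, median 524, and between 549.6 and 768 with anti-Ly6G, median 605, with no overlap (log2 difference 0.30, SE 0.0560; adjusted p = 0.00554), and Pkm (pyruvate kinase) was at 0.28 (adjusted p = 0.0176). Eno1 has processed copies in the genome that could share its reads. Slc2a1, the glucose transporter GLUT1, was at 0.33 and the oxygen-regulated hydroxylase Egln3 at 0.33, calls lost without any 1 of 11 of the 18 libraries, with adjusted p up to 0.0866 and 8 of the 18 libraries, with adjusted p up to 0.0839. Without ZT13 the list had 2 higher and without anti-Ly6G replicate 1 5, at a median of 0.13.

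Chaperone lists held 3 calls, 2 higher of 15 genes of the endoplasmic reticulum and 1 lower of 10 heat shock and cold-induced genes, against 2.81% higher and 1.04% lower over all genes. Xbp1, the factor of the unfolded protein response, was at 0.19 (adjusted p = 0.0224) and Hyou1 at 0.26 (adjusted p = 0.0496). The call of Hyou1 was lost without any 1 of 13 of the 18 libraries, with adjusted p up to 0.0991. It was lost too with pseudocounts of 0.1 and 5, no filter, quantile scaling, voom or array weights, robust variances and no ZT term. In all, Hyou1 stayed called in 9 of 33 alternatives. Hspd1, a mitochondrial chaperone, fell (log2 difference -0.23, SE 0.0614; adjusted p = 0.0442), which was lost without any 1 of 12 of the 18 libraries, with adjusted p up to 0.0901. The lists without anti-Ly6G replicate 1 held 1 and 0 calls. No gene was called among 11 of osteoblasts and stroma and 5 of adipocytes, although the stromal sum ranged between 4080.1 and 24419 with IgG.

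Of 18 core clock genes 1 was called at these times, against 3.85% over all genes. Nr1d2 (ENSMUSG00000021775, chromosome 14, 18204054 to 18239127), the gene of the repressor REV-ERB beta, was between 9.08 and 26.0 with IgG, median 13.7, and between 9.02 and 13.4 with anti-Ly6G, median 10.8 (log2 difference -0.44, SE 0.0860; adjusted p = 0.00825). The IgG mean fell from 21.9 at ZT13 to 14.5 at ZT17 and 10.9 at ZT21, and the anti-Ly6G mean from 12.6 to 10.7 and 9.47, so that the log2 difference was -0.74 at ZT13, -0.40 at ZT17 and -0.18 at ZT21. Its call was lost without ZT13 and without ZT17. Dbp, an output factor of the clock, was between 1.28 and 6.79 with IgG, median 2.94, and between 0.937 and 2.92 with anti-Ly6G, median 1.52 and did not pass (log2 difference -0.60, SE 0.17; adjusted p = 0.0518). Per1, which answers to light and to glucocorticoids, was between 13.5 and 27.6 with IgG, median 19.9, and between 17.2 and 59.6 with anti-Ly6G, median 22.7 (log2 difference 0.36, SE 0.163; adjusted p = 0.228), with log2 differences of 0.90 at ZT13, 0.37 at ZT17 and -0.19 at ZT21. The rest lay between -0.27 for Bhlhe41 (adjusted p = 0.157) and 0.24 for Nfil3 (adjusted p = 0.176). Tef was at -0.16, Arntl, the gene of BMAL1, at -0.09, and Nr1d1 at -0.07. Near 0 were Per2 (-0.01), Per3 (0.02), Ciart (0.03), Bhlhe40 (0.04), Rora (-0.05) and Clock (0.06). Cry1 was at 0.17, Hlf at 0.18 and Npas2 at 0.21, and Cry2 was at 0 to 2 decimals.

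With each time tested on its own, 3 libraries against 3, the calls at ZT13 rested on anti-Ly6G replicate 1, 1 of the 3 anti-Ly6G libraries there. At ZT13, 274 genes were higher (1.92%) and 94 lower (0.658%) with it, and 8 higher and 6 lower without it, in a fit with 2 anti-Ly6G libraries at that time. At ZT17 there were 0 of each (0%), with 845 genes at an unadjusted p under 0.05, and at ZT21 there were 1 higher (0.007%) and 0 lower, with 1440 at an unadjusted p under 0.05, by the same limma fit. The 1 was Alas1 (adjusted p = 0.0246). Without that library the same fit gave 0 higher and 1 lower at ZT17, and 38 higher and 6 lower at ZT21. The 401 genes called higher over the 3 times had a median log2 difference of 0.36 at ZT13, 0.20 at ZT17 and 0.26 at ZT21, and the 149 called lower -0.32, -0.21 and -0.24. The ZT13 medians without anti-Ly6G replicate 1 were 0.23 and -0.23. These medians come from the libraries that chose the genes and are a description. The test of unequal differences over the 3 times called 0 genes (0%), with a smallest adjusted p of 0.626 and 1068 genes at an unadjusted p under 0.05. Prtn3 had 0.69 at ZT13, 0.68 at ZT17 and 0.84 at ZT21, Il1b -1.53 at ZT13, -1.43 at ZT17 and -1.19 at ZT21, and Ptgs2 -1.61 at ZT13, -0.58 at ZT17 and -0.58 at ZT21. The IgG mean of Ptgs2 was 2.41 at ZT13, 0.716 at ZT17 and 0.724 at ZT21 while the anti-Ly6G mean was 0.118, 0.147 and 0.139. The smallest p of that test was that of Prl8a1, a member of the prolactin family (unadjusted p = 0.000133), with 0.70 at ZT13, -0.64 at ZT17 and 0.20 at ZT21.

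The 18 light-phase libraries of the same tissue (ZT1, ZT5 and ZT9, 3 mice per antibody and time) share no library with these. There 520 genes were higher (3.64%) and 317 lower (2.22%), in a fit of all 36 libraries. The dark-phase calls of that same fit were 1088, 762 higher and 326 lower. The 550 calls from 18 libraries are therefore not the counterpart of the light-phase counts. Of the 550 dark-phase calls, 533 (96.9%) had the same sign in the light phase and 261 were also called there in the same direction. Over all genes tested, 3.64% were called higher and 2.22% lower in the light phase. The share of all genes with the same sign in both phases was not counted. The median light-phase log2 difference was 0.19 for the genes called higher in the dark phase and -0.15 for those called lower. Prtn3 had 0.60 in the light phase, Mpo 0.44, Elane 0.44, Ctsg 0.47, Il1b -1.84, Ptgs2 -1.41 and Fos -1.35. For the last 3 the light-phase value was farther from 0, but the difference between the phases did not pass for any of them (adjusted p = 0.981, 0.974 and 0.981). Epx had 0.12 by day (adjusted p of the difference between phases = 0.981).

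**Figure D4:**
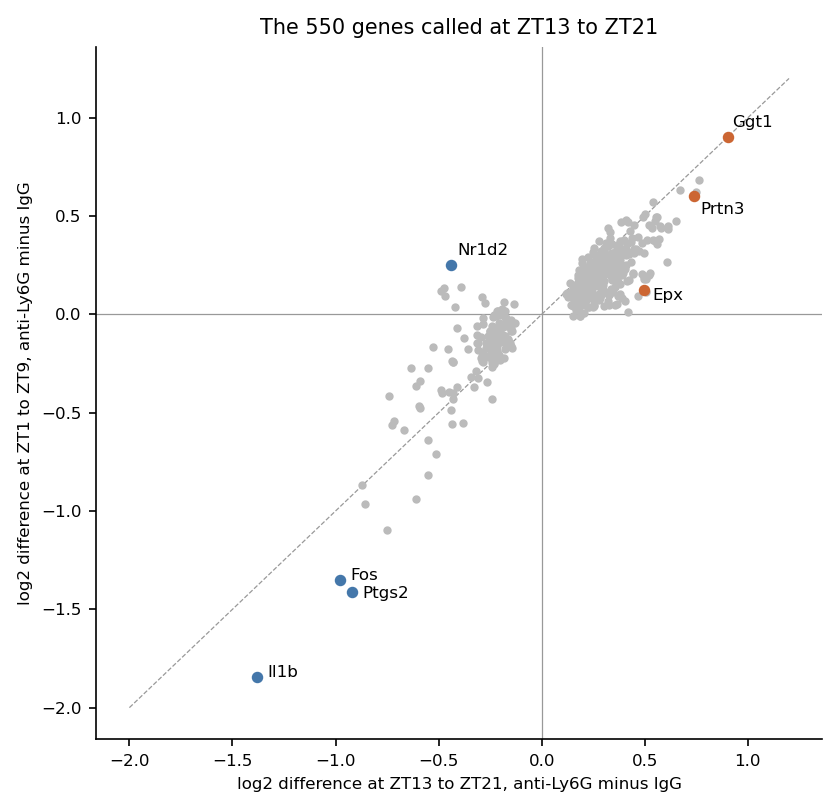
Log2 difference (anti-Ly6G minus IgG) of the 550 genes called at ZT13 to ZT21, on the horizontal axis, against the same difference in the 18 separate libraries of ZT1 to ZT9, with the line of equality dashed. Most genes, 533, lie in the quadrants of equal sign, and Nr1d2 lies apart.

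The test of the difference between the phases called 1 of 14289 genes (0.007%), Nr1d2, with 684 genes at an unadjusted p under 0.05. Its log2 difference was -0.44 in the dark phase and 0.25 in the light phase, where the means were 18.0 with IgG and 21.2 with anti-Ly6G (difference -0.69, SE 0.105; adjusted p = 0.00357). The next genes did not pass: Fmo2, a flavin monooxygenase, had -0.40 against 0.46, Insig1, which holds back cholesterol synthesis, 0.18 against -0.17, Grem1, an inhibitor of bone morphogenetic proteins, -0.39 against 0.14, and Noc2l, an inhibitor of histone acetylation, -0.13 against 0.05 (each adjusted p = 0.541). The dark-phase calls of Grem1 and Noc2l were lost without 1 library (IgG replicate 2 for Grem1, and for Noc2l any 1 of 4 of the 18 libraries, with adjusted p up to 0.057). Dbp had -0.60 against 0.09 (adjusted p = 0.768) and Per1 0.36 against 1.07 (adjusted p = 0.963).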

How the data were processed

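RNA from bone marrow was sequenced from 200 ng of total RNA as 50 nt single reads on a HiSeq2500, per the labels' protocols, which name cutadapt 1.7.1, RSEM 1.2.20, Kallisto 0.43.1 and the GRCm38 Ensembl build 84 transcriptome. The submitters' processing notes give RSEM 1.7.1, limma 3.46 and mm10. The authors deposited a normalized signal, per gene and library, whose columns sum to near a per-million scale; the normalization and gene filter are not given in the sources used here. In each column they equalled expected counts plus 0.5, scaled, and 30.4% to 37.6% of the recovered counts in the 18 libraries were whole within 0.005, so no count test was the main result. Gene coordinates on GRCm38 were looked up by identifier in GENCODE M21, where 57 identifiers had no match, and promoters in RefSeq tables of GRCm38.p6.

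The log2 of the value plus a pseudocount of 1 was analysed (R 4.3.3). The 14289 of 16335 genes with a mean of at least 1 over 36 bone marrow libraries were fitted with limma 3.58.1 (trend), with ZT as a factor, two-sided, Benjamini-Hochberg over all genes, threshold 0.05; the 2046 others were not tested. Differences at each ZT and between ZT are contrasts of cell means in the 18 libraries, and those of the light phase and between phases in all 36. Replicates are separate mice per the labels, numbered 1 to 9 in accession order. The script was tested on simulated data. The groups, the 34 gene lists and the rule for named genes were chosen with earlier results of these data known. Named are Ly6g, the 12 largest called rises and falls with 1 sign at all 3 ZT (leaving out unnamed models, immunoglobulin and T cell receptor segments, pseudogenes and small RNAs), core clock genes, up to 4 called members of each list (or the 2 largest not called), the 6 smallest p between phases and between ZT, and markers. Other list members are named after their values were seen. A few genes that the rule selects or the lists hold are not reported here. Coordinates are 1-based. Alternatives covered pseudocount, filter, scaling, weights, model and left-out libraries or times.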

Additional observations from a re-analysis of the deposited data

Results flagged for a closer look

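Of the 144 genes under the naming rule 4 are not reported. In the other 140, each looked at in the 9 libraries of either antibody, 43 cases had 1 library standing apart from the other 8 by more than Dixon's 95% critical value for the gap over the range on the log2 scale. Chance alone gives about 1 in 20. Of the 43, 37 were in anti-Ly6G replicate 1 (ZT13), 27 with a high and 10 with a low value. The 37 are not independent, since they are genes of the same library. It was the highest for Il1b at 19.6 against at most 12.8, Fos at 13.4 against at most 6.91, Gfi1 at 57.1 against at most 41.8, Fcgr2b at 106 against at most 92.7 and Lrg1 at 174 against at most 101. Also above were Ly6c2 at 706 against at most 576, Cebpe at 149 against at most 116, Upp1 at 11.2 against at most 6.53, Pglyrp1 at 513 against at most 346 and Anxa1 at 1540.1 against at most 1114. The same held for Cd177 at 1280.2 against at most 820.0, C3 at 1046 against at most 755, Ncf4 at 244 against at most 164, Dusp1 at 47.5 against at most 26.0 and Lcn2 at 2919.6 against at most 1941. It further had Alox5ap at 508 against at most 375, Stfa2l1 at 27.7 against at most 16.0, Padi4 at 217 against at most 165, Cybb at 1249 against at most 896 and Ncf1 at 1045 against at most 737. To these add Ltf at 6453 against at most 4575, Ngp at 8719 against at most 6302, Ly6g at 175 against at most 125, S100a8 at 9363 against at most 6556 and Cry1 at 35.6 against at most 25.3. Among further genes it had S100a9 at 12898 against at most 8878 and Ipcef1 at 91.6 against at most 73.0. It was the lowest for Epor at 58.5 against at least 71.9, Klf1 at 91.8 against at least 129, Igll1 at 10.4 against at least 16.4, Alas2 at 896 against at least 1373 and Cd79b at 94.8 against at least 126. At the low end too were Mzb1 at 9.66 against at least 14.5, Hbb-bs at 18069 against at least 27362, Vpreb1 at 5.98 against at least 10.5 and Ccne1 at 47.2 against at least 64.6. And further Arntl at 13.3 against at least 20.005.

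The other 6 cases lay in 6 libraries. B4galt6 in IgG replicate 2 was 31.0, below the other 8 libraries of its group at 37.1 to 43.9. Junb in IgG replicate 9 was 40.6, above the other 8 libraries of its group at 25.7 to 31.9. Prg2 in anti-Ly6G replicate 2 was 2049, above the other 8 libraries of its group at 1141 to 1531. Insig1 in IgG replicate 8 was 21.1, below the other 8 libraries of its group at 25.8 to 30.1. H2-DMa in anti-Ly6G replicate 9 was 42.3, above the other 8 libraries of its group at 32.7 to 36.9. Spp1 in anti-Ly6G replicate 4 was 70.7, below the other 8 libraries of its group at 135 to 253.

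Nr1d2 differed between the phases by the test of the difference itself, with a dark minus light log2 difference of -0.69 (adjusted p = 0.00357, limma). All 3 dark-phase times had a negative difference.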

How the results depend on the processing

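Of the 72 called genes under the naming rule, 72 kept their sign in up to 33 alternatives each, 46 stayed called without each library in turn, 67 without anti-Ly6G replicate 1, and 12 in every alternative, among them Il1b, Alas1, Prtn3, Mpo, Ctsg, Elane, B4galt6, Fos, Ms4a3, Gfi1 and Fcgr2b. Of 72 genes under the rule that were not called, 15 were called under some alternative. No result reversed. The test between phases called 1 gene and the test between ZT 0 genes in every alternative run.

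Counts of calls moved. Pseudocounts of 0.1 and 5, other filters, scalings, voom weights and robust variances gave between 467 and 609 calls against 550. Array weights gave 895 (317 lower), and all 36 libraries in 1 fit gave 1088, 762 higher and 326 lower. Without ZT13 there were 228 (172 higher, 56 lower), without ZT17 70 (62 and 8) and without ZT21 35 (25 and 10), each with 12 libraries in place of 18. Leaving out 1 library gave between 254 and 812 calls, between 194 and 548 higher and between 60 and 264 lower. The total fell by over 1.5 times without IgG replicate 2 (254), 3 (280), 4 (290), 7 (332) or 9 (294) or anti-Ly6G replicate 6 (289) or 8 (362). Quantile and median ratio scaling moved the median of all genes by under 0.1.

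No paired analysis was possible because the labels of the bone marrow libraries carry no number shared between the antibodies. Depth limits low genes: Ptgs2 and Cxcl2 rest on 14 and 24 anti-Ly6G reads, Lhx1 on 135 anti-Ly6G reads and Prok2 on 116 IgG reads. The list counts without ZT13 or anti-Ly6G replicate 1, and the calls at each ZT without that replicate, were chosen after seeing the data.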
